A study of Esox lucius with 13 samples.

Results

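Solute carriers, ion-transporting ATPases and related membrane transporters of northern pike were described in RNA-seq libraries of 13 tissues. The members are the rows of the 2 annotation tables of the study whose annotation names a solute carrier, a transporting ATPase, an ammonium or urea transporter, a carbonic anhydrase, an aquaporin, an ATP-binding cassette protein, a sodium exchanger or cotransporter, or a sulfate transporter. Of 2747 annotated rows at hand, 48 met this rule, 17 of them Trinity transcripts and 31 gene models of MAKER2. The annotation is the best protein match in Swiss-Prot, so that a name gives the nearest known relative and not a tested function. The deposited files hold values of 38696 Trinity transcripts, of which 38393 had at least 1 fragment. A transcript was found in them for 23 of the 48 members, and all counts below refer to these 23. For 4 more, a transcript was paired by a rule added after the data were examined, and their values are given where they are named. The other 21 members, all of them MAKER2 models, could not be paired with a single transcript and are named only.

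Solute carriers move ions, sugars, organic acids and vitamins across membranes, mostly along gradients that the ion pumps set up. The sodium pump, Na+/K+-ATPase, drives sodium out of the cell and is the engine of most epithelial salt transport. A freshwater fish such as the pike loses salt to the water and gains water: its gill takes up ions through specialised cells called ionocytes, its kidney takes salt and solutes back from the filtrate, and its gut absorbs those of the food.

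All 13 libraries came from 1 juvenile, male, wild-type fish, with 1 library for each of gill, kidney, gut, stomach, liver, brain, eye, head kidney, heart, muscle, nose, spleen and testis. According to the methods the gut sample was hind gut, and 1 of the annotation tables gives pyloric caecum where the labels give stomach. The fish was frozen whole before the tissues were sampled, and no treatment is named. Since each tissue is 1 library of the same animal, no test between tissues was made and all values describe these libraries.

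Values are FPKM, the fragments scaled to transcript length and to the mapped fragments of the library, as deposited, with the fragments behind them. Intervals are exact 95% intervals of counting error only, from reads counted without molecular identifiers. The libraries held 17240414 (brain) to 22300517 (liver) fragments. The 100 most abundant transcripts took 74.7% of the fragments in stomach, 74.3% in liver, 71.6% in muscle and 15.0% to 54.2% elsewhere, which lowers the FPKM of all other transcripts in those 3 libraries. Against library totals, scaling by median-of-ratios size factors shifted all transcripts of a library by between -0.99 (spleen) and 1.94 (liver) on the log2 scale. Paired markers of liver, eye and testis were highest in their own libraries. Of 3 kidney markers, renin and cubilin were highest in kidney, whereas podocin had 19.9 FPKM in kidney and 26.1 in testis. Renin was also read in gut, at 13.1 FPKM from 478 fragments, beside 23.7 FPKM from 905 in kidney. No defining marker of stomach or gut could be paired, so that those labels were not checked here. The study itself reports high expression of chymosin, gastricsin and pepsin in its stomach sample. Rhodopsin had 544342 fragments in eye, 180 in gill, 142 in stomach, 131 in gut and 13 in brain, and none in the other 8 libraries. In whole tissue, fewer cells of a type and less RNA per cell cannot be told apart.

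By the tissue with the highest FPKM, the 23 members divided over 9 libraries. Of them, 7 were highest in brain, 4 in kidney, 3 in gill, 3 in eye, 2 in nose and 1 each in gut, liver, stomach and spleen. None was highest in head kidney, heart, muscle or testis. Among all transcripts with a fragment, 27.2% were highest in brain, 3.93% in kidney, 3.84% in gill, 4.93% in eye, 9.65% in nose, 4.61% in gut, 1.5% in liver, 1.26% in stomach and 14.2% in spleen, and 5.88% in head kidney, 4.96% in heart, 2.04% in muscle and 15.9% in testis. The share of members highest in brain is thus near that of all transcripts. With at least 10 fragments asked for in the highest tissue, 3 members each were highest in brain, kidney and gill, and with size factors 5 were highest in eye, 4 in brain and 4 in kidney. Shares of all transcripts were not calculated under these settings, so these counts cannot be set against the shares above.

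A transcript was called in a tissue when its FPKM was more than 3 SD above its mean of the 13 tissues, which is the measure of specialised expression used in the study. By this measure 12 of the 23 members were called in 1 tissue, against 37.7% of all transcripts. With 13 values the score cannot exceed 3.33, and a transcript read in 1 library alone is called even from 1 fragment. With at least 10 fragments asked for in the called tissue, 9 members were called, a setting without a calculated share of all transcripts. Of the 14 members with at least 50 fragments, 8 were called. The share of all transcripts with as many fragments was not calculated, so this count cannot be set against the 37.7%. On log2(FPKM + 1), 7 members were called, beside 18.5% of all transcripts.

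In gill, kidney, gut, stomach and liver, the tissues compared here, a member was called when its FPKM was at least 2 times that of each of the other 4, from at least 10 fragments. This gave 4 members in kidney, 4 in gill, 1 in stomach and none in gut or liver. Of all transcripts, 9.07% were called in kidney, 7.32% in gill, 1.25% in stomach, 5.13% in gut and 1.42% in liver. The 4 members of the added rule bring 2 calls in gut. Of the 4 in kidney, 3 are MAKER2 models, as are 2 of the 4 in gill, and without the models paired by proportion 2 members were called in kidney and 2 in gill. Of these 2 in kidney, SLC2A9 is still a MAKER2 model, paired by near-equal counts. Models needed at least 200 fragments to be paired, and 1413 of the 1430 fragments of SLC2A9 were in kidney. The 2 in kidney are thus not free of this selection. Pairing by proportion can only find transcripts whose profile over the tissues differs from that of all others. The part of the minimum and of pairing by proportion in these counts was not tested.

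Summed over the 23 members, the level was 393 FPKM in kidney, 53.5 in gill, 19.2 in gut, 19.1 in liver and 16.97 in stomach. A single member, SLC12A3, made up 58.2% of the sum in kidney, followed there by SLC13A3 (101 FPKM) and SLC2A9 (44.1 FPKM). Like SLC12A3, both are MAKER2 models, which needed at least 200 fragments to be paired. The part of this selection in the sum was not tested. The median of the 23 members was 0.29 FPKM in kidney and 0 in gill, gut, stomach and liver, beside medians of all transcripts with a fragment of 0.457, 0.331, 0.363, 0.124 and 0.031 in the same order. Most members found as Trinity transcripts are short and thinly covered, with a median of 354 bases and 22 fragments over all libraries, against 1174 bases and 350 fragments for all transcripts.

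**Figure D1:**
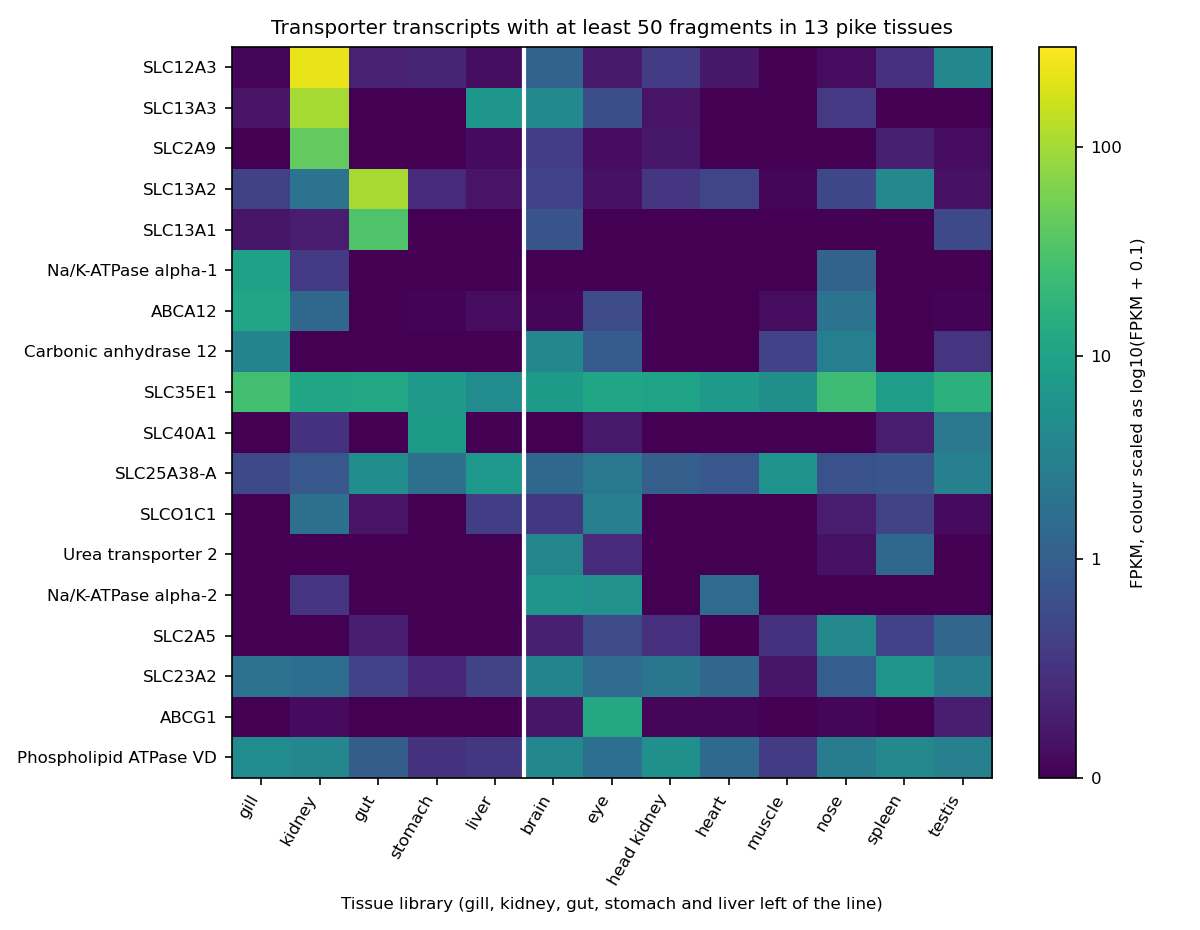
FPKM of the 18 members with at least 50 fragments (rows) in the 13 tissue libraries (columns), with colour scaled as log10(FPKM + 0.1). SLC12A3, SLC13A3 and SLC2A9 are brightest in kidney, SLC13A2 and SLC13A1 in gut, and SLC35E1 is read throughout, at 4.73 to 26.8 FPKM.

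Solute carrier family 12 member 3 (SLC12A3), in mammals the thiazide-sensitive sodium-chloride cotransporter of the distal tubule, reached the highest FPKM among the members with a transcript. It had 228 FPKM (225 to 232) in kidney from 17598 fragments, 4.04 (3.60 to 4.52) in testis, 1.15 in brain, 0.301 in head kidney and 0.198 in spleen. It had 10 fragments in stomach, 8 in gut, 6 in eye, 5 in heart, 3 in liver, 2 in nose, 1 in gill and none in muscle. Kidney held 97.5% of its fragments, and its level ranked 193rd among all transcripts there. Its FPKM in kidney was 56.6 times that in testis (50.5 to 63.6) and 1762 times that in stomach (958 to 3674), the highest of the other 4 compared tissues. From head kidney down, no pair of neighbours in the order of tissues differed beyond counting error.

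The 302 fragments of SLC12A3 in testis stand beside a partial overlap of kidney and testis markers. The 3 kidney markers summed to 62.2 FPKM in kidney, 26.2 in testis and 13.7 in gut. In testis podocin had 1100 fragments, cubilin 15 and renin none. The 3 testis markers, securin, G2/mitotic-specific cyclin-B2 and gonadal histone H2A, summed to 3959 FPKM in testis, 193 in kidney and 50.1 in head kidney. All 3 were read in kidney, and also in head kidney, brain, gut, liver, nose, stomach and spleen, where their sums went down to 0.451 FPKM, in liver. Which cells gave these fragments was not tested. The part of kidney cells or of carried-over RNA in the value of SLC12A3 in testis was not tested.

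Solute carrier family 13 member 3 (SLC13A3), a sodium-coupled carrier of dicarboxylates such as succinate, had 101 FPKM (96.6 to 105) in kidney from 2067 fragments. It followed with 6.57 FPKM (5.57 to 7.70) in liver and 4.53 (3.60 to 5.63) in brain. There were 12 fragments in eye, 5 in nose, 1 each in gill and head kidney and none in the other 6 libraries, testis, gut and stomach among them. Kidney exceeded liver 15.3 times (13.01 to 18.2). With size factors this ratio was 2.55, because the liver library is shifted up by that scaling.

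Solute carrier family 2, facilitated glucose transporter member 9 (SLC2A9), a relative of glucose carriers that moves urate in mammals, had 44.1 FPKM (41.8 to 46.5) in kidney from 1413 fragments. All other libraries together held 17 fragments, 9 of them in brain, 3 in spleen, 2 in head kidney and 1 each in testis, eye and liver. No fragment was counted in gill, gut, stomach, heart, muscle or nose. These counts place kidney 137 times above brain (72.0 to 300.2), and no neighbours below kidney differed beyond counting error. A pair of short transcripts carries the same name, of 337 bases with 12 fragments and 305 bases with 5, and neither of them had more than 4 fragments in any library. The RefSeq gene table of pike (assembly fEsoLuc1.pri) lists 2 genes of this name, so that these 3 transcripts may include pieces of the same gene.

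The fourth member called in kidney, Solute carrier organic anion transporter family member 1C1 (SLCO1C1), is a thyroid hormone carrier of the blood-brain barrier in mammals. It was higher in eye, with 2.92 FPKM (2.41 to 3.51) from 115 fragments, than in kidney, with 1.81 (1.41 to 2.29) from 70. The ratio of eye to kidney was 1.61 (1.19 to 2.20). Spleen and liver had 15 fragments each, brain 9, nose 3, gut 2 and testis 1, and none of these neighbours differed beyond counting error. Kidney exceeded liver 5.27 times (2.99 to 9.91) in FPKM, but with size factors it had 1.15 and liver 1.32, and the call in kidney was lost. Eye then exceeded kidney 2.48 times.

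Both members read almost wholly in gut belong to family 13, as SLC13A3 does, and both were paired by the added rule. Solute carrier family 13 member 2 (SLC13A2), a sodium-coupled carrier of dicarboxylates and of citrate, had 107 FPKM (105 to 109) in gut from 10502 fragments. Spleen followed with 4.30 FPKM (3.89 to 4.74) from 407 fragments and kidney with 2.03 (1.76 to 2.32) from 209. The remaining 10 libraries had 1 (muscle) to 43 (nose and heart) fragments. Gut exceeded spleen 24.8 times (22.5 to 27.5), or 52.1 times with size factors, and kidney 52.6 times (45.9 to 60.6). Claudin-15, a tight junction protein of the intestine that was paired by the added rule too, had 8264 fragments in gut and none in spleen. It is a MAKER2 model that needed at least 200 fragments to be paired, and its 13 libraries together held 8309. The part of this selection in its profile was not tested. Trypsin and elastase transcripts, the markers of exocrine pancreas, summed to 1958 FPKM in spleen, 1452 in liver, 376 in head kidney and 56.9 in gut. Trypsin-1 and anionic trypsin-1 made up nearly all of this, with 1154 and 801 FPKM in spleen and 831 and 621 in liver. The elastase transcripts went another way and were highest in gut (5.41 FPKM), stomach (8.10) and head kidney (0.891). SLC13A2 had 6 fragments in liver and 25 in head kidney. The parts of gut and of pancreas in its value in spleen were not tested.

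Solute carrier family 13 member 1 (SLC13A1), a sodium-sulfate cotransporter that in mammals acts in kidney and small intestine, had 32.7 FPKM (30.8 to 34.6) in gut from 1125 fragments. There were 22 fragments in brain, 17 in testis, 3 in kidney, 2 in gill and none in the other 8 libraries. Gut exceeded brain 46.7 times (30.7 to 74.9), or 75.4 times with size factors. Relative to kidney the ratio was 393 (134 to 1907), set by the 3 fragments there. In gut the level of SLC13A1 ranked 1235th among all transcripts and that of SLC13A2 393rd. SLC13A3, by contrast, had 101 FPKM in kidney and no fragment in gut. All 3 carriers of family 13 with values are MAKER2 models, paired through a minimum of fragments and a distinct profile over the tissues. A further model of SLC13A3 had no transcript. How the family as a whole divides between kidney and gut therefore cannot be read from these 3.

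**Figure D2:**
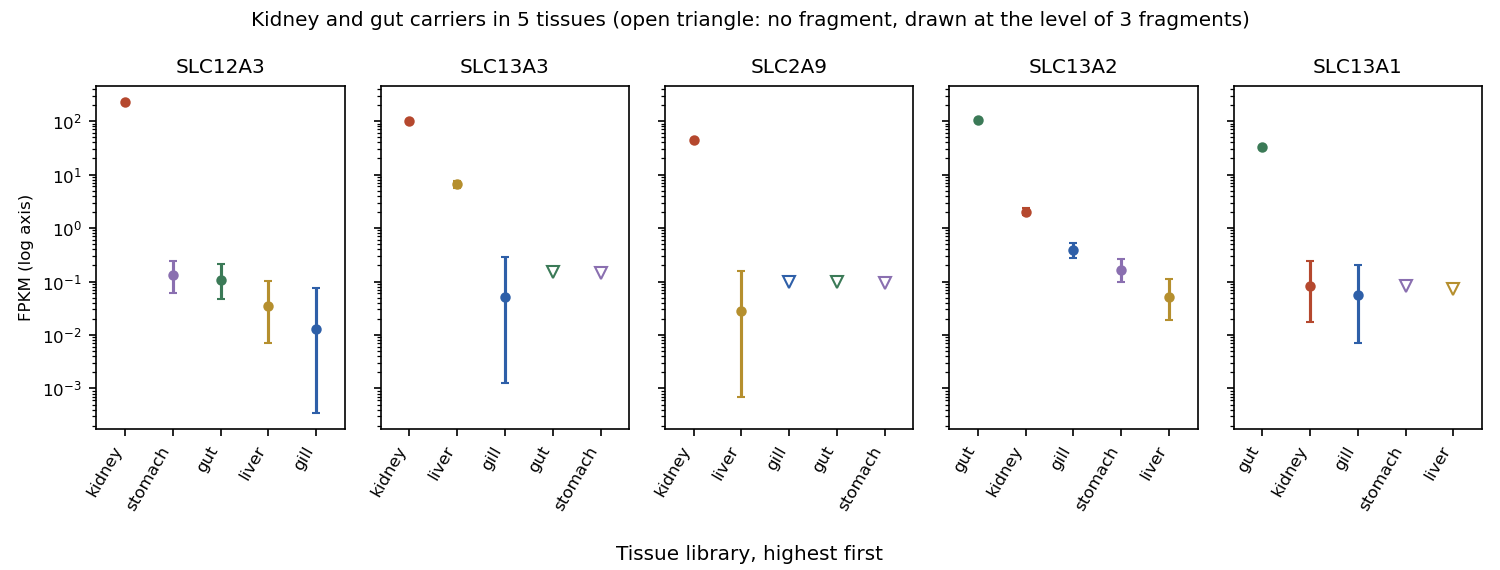
FPKM of 5 carriers in kidney, gut, stomach, gill and liver on a log axis, highest tissue first, with exact 95% intervals and with open triangles at the level of 3 fragments where none was counted. The leading tissue lies at 32.7 to 228 FPKM and all other tissues at or below 6.57.

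Of the 4 members called in gill, a transcript annotated as the alpha-1 subunit of Na+/K+-ATPase, the catalytic subunit of the sodium pump, was read in the fewest tissues. It had 9.61 FPKM (7.40 to 12.3) in gill from 64 fragments, 7 fragments in nose, 2 in kidney and none in the other 10 libraries. Gill exceeded nose 8.48 times (3.89 to 21.9) and kidney 33.1 times (8.81 to 280). The transcript has 349 bases, so that it holds only a piece of this subunit. Other transcripts of alpha subunits may be in the deposited files under names not at hand, and the level of the whole pump in a tissue cannot be read from this one.

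ATP-binding cassette sub-family A member 12 (ABCA12), a lipid transporter needed for the skin barrier in mammals, had 10.9 FPKM (10.3 to 11.4) in gill from 1481 fragments. Nose had 1.99 (1.76 to 2.26), kidney 1.40 (1.21 to 1.61) and eye 0.542 (0.429 to 0.677). Liver had 5 fragments, muscle 4, brain 2 and testis and stomach 1 each, and none was counted in gut, head kidney, heart or spleen. Gill exceeded nose 5.45 times (4.76 to 6.25) and kidney 7.75 times (6.68 to 9.03), and each of the first 4 tissues differed from the next beyond counting error.

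Carbonic anhydrase 12, a membrane-bound enzyme that interconverts carbon dioxide and bicarbonate outside the cell, was read in brain (31 fragments, 4.12 FPKM), gill (29, 3.49 FPKM) and nose (24, 3.11 FPKM). These 3 did not differ beyond counting error: brain exceeded gill 1.18 times (0.690 to 2.03) and gill exceeded nose 1.12 times (0.630 to 2.01). Eye had 8 fragments, muscle 3 and testis 2. Kidney, gut, stomach and liver had none, and the 29 fragments in gill were 10.01 times the floor of 3 fragments in kidney, with an exact lower limit of 7.64 for the ratio of gill to kidney.

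Solute carrier family 35 member E1 (SLC35E1), of a family of nucleotide sugar transporters, was read in all tissues. It had 26.8 FPKM (25.5 to 28.2) in gill, 24.0 (22.7 to 25.3) in nose, 17.2 (16.2 to 18.3) in testis, 12.03 in gut, 11.5 in kidney, 7.20 in stomach and 4.73 (4.24 to 5.27) in liver, the lowest. Gill exceeded nose only 1.12 times (1.04 to 1.20) and gut 2.23 times (2.04 to 2.44), which is just past the limit of a call. With size factors gill stood at 19.0 and liver at 18.1, and the call was lost. Gut, kidney, eye and head kidney, at 10.4 to 12.03 FPKM, followed each other within counting error.

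Forkhead box protein I1, which directs the formation of ionocytes and was the gill marker that could be paired, had 43.5 FPKM in gill, 16.8 in kidney, 6.58 in nose, 0.742 in gut and no fragment in liver or stomach. Nose was the next tissue after gill for the sodium pump transcript, ABCA12 and SLC35E1, and for this factor it came after kidney. The part of ionocytes in the levels of these members was not tested.

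**Figure D3:**
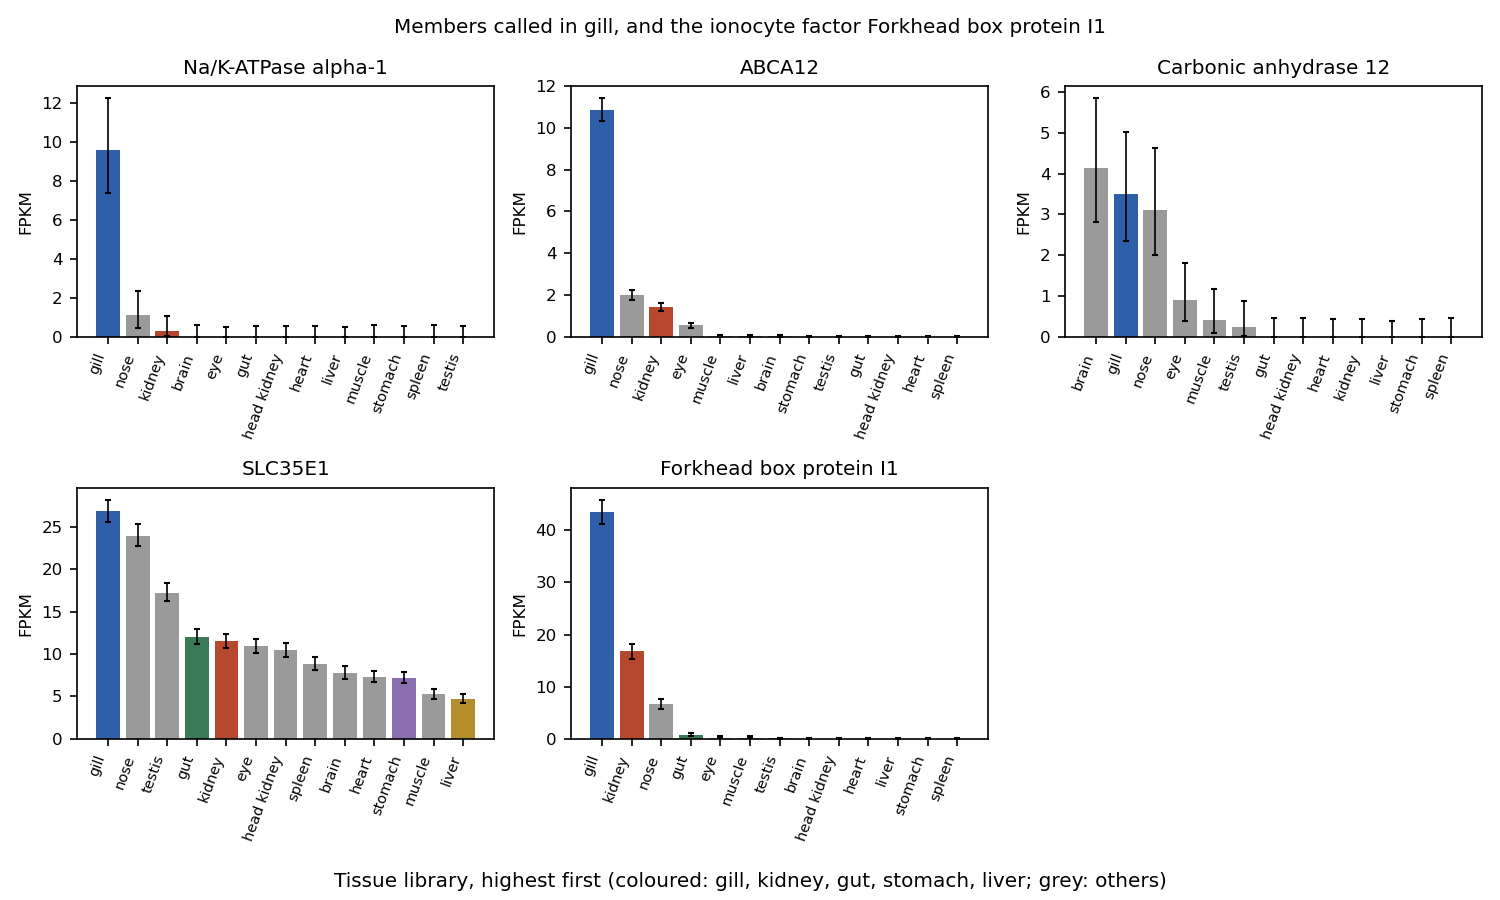
FPKM of the 4 members called in gill and of Forkhead box protein I1 in the 13 libraries, highest first in each panel, with exact 95% intervals. Bars for gill are tallest in 4 panels, whereas for Carbonic anhydrase 12 brain, gill and nose overlap at 4.12, 3.49 and 3.11 FPKM.

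In stomach 1 member was called. A transcript of 665 bases annotated as Solute carrier family 40 member 1 (SLC40A1), the iron exporter ferroportin, had 7.68 FPKM (6.26 to 9.33) in stomach from 101 fragments. Testis had 2.27 (1.52 to 3.27) from 29 fragments, kidney 3 fragments, spleen and eye 1 each, and the other 8 libraries none, gut and liver among them. Stomach exceeded testis 3.38 times (2.22 to 5.30). This ratio was 9.96 with size factors and 2.1 in TPM, so that its size depends on the scale but its direction does not. Relative to kidney it was 33.6 (11.2 to 166). A MAKER2 model of 1722 bases has the same annotation and is not paired, and the RefSeq table lists 1 gene of this name. The transcript is not full-length, so the level of the whole gene in a tissue cannot be read from it.

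In liver no member was called, and 1 was highest. Solute carrier family 25 member 38-A (SLC25A38-A), a mitochondrial carrier that in yeast and mammals supplies glycine for haem synthesis, had 6.96 FPKM (6.43 to 7.53) in liver, 5.93 (5.37 to 6.53) in muscle and 5.04 (4.54 to 5.57) in gut. It went down over testis (3.21), eye (2.37), stomach (1.81), brain (1.38) and head kidney (1.04) to kidney (0.791), heart (0.769), spleen (0.738), nose (0.645) and gill (0.481). Liver exceeded muscle 1.18 times (1.04 to 1.33), gut 1.38 times (1.22 to 1.57) and gill 14.5 times (10.4 to 20.7). The first 6 tissues each differed from the next beyond counting error, and from brain to gill no neighbours did. With size factors liver stood at 26.7 and gut at 5.30, which would be a call in liver. The liver library also held trypsin-1 and anionic trypsin-1, markers of exocrine pancreas, at 831 and 621 FPKM. The part of pancreas in the value of SLC25A38-A there was not tested.

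Members highest outside the 5 compared tissues were mostly thin in counts. Urea transporter 2, a channel for urea, had 3.70 FPKM (2.94 to 4.61) in brain from 80 fragments and 1.36 (0.926 to 1.93) in spleen from 31. Eye had 4 fragments, nose 1 and the other 9 libraries none, kidney included. Brain exceeded spleen 2.72 times (1.78 to 4.26). A second, short transcript of the same name had 5 fragments in brain, 4 in eye and 1 in nose. Thus neither was read in gill, kidney, gut, stomach or liver, where a level of 3 fragments of the longer one would be 0.107 to 0.127 FPKM.

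A transcript of 204 bases annotated as the alpha-2 subunit of Na+/K+-ATPase, the form of glia and muscle in mammals, had 23 fragments each in brain and eye. Heart had 6, kidney 1 and the other 9 libraries none, gill and muscle among them. Brain exceeded eye 1.17 times (0.626 to 2.18) in FPKM and fell below it with size factors (4.27 in brain, 5.46 in eye), so that their order is not fixed by these counts. Only 2 fragments of the alpha-1 transcript and 1 of the alpha-2 transcript were counted in kidney.

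Solute carrier family 2, facilitated glucose transporter member 5 (SLC2A5), a fructose carrier, had 4.18 FPKM (3.003 to 5.68) in nose from 41 fragments and 1.32 (0.720 to 2.21) in testis from 14. Of the other libraries, 6 had 1 to 6 fragments each, and gill, kidney, stomach, liver and heart none. Nose exceeded testis 3.18 times (1.70 to 6.31). The transcript has 554 bases, and the RefSeq table of pike lists no gene of this name.

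ATP-binding cassette sub-family G member 1 (ABCG1), an exporter of cholesterol paired by the added rule, had 12.4 FPKM (11.6 to 13.2) in eye from 931 fragments. All other libraries together held 16 fragments, at most 7 of them in 1 library, testis. Eye exceeded testis 127 times (61.3 to 316). MAKER2 models needed at least 200 fragments to be paired, and 931 of the 947 fragments of ABCG1 were in eye. The part of this selection in its profile was not tested. No fragment was counted in gill, gut, stomach, liver, muscle or spleen.

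**Figure D4:**
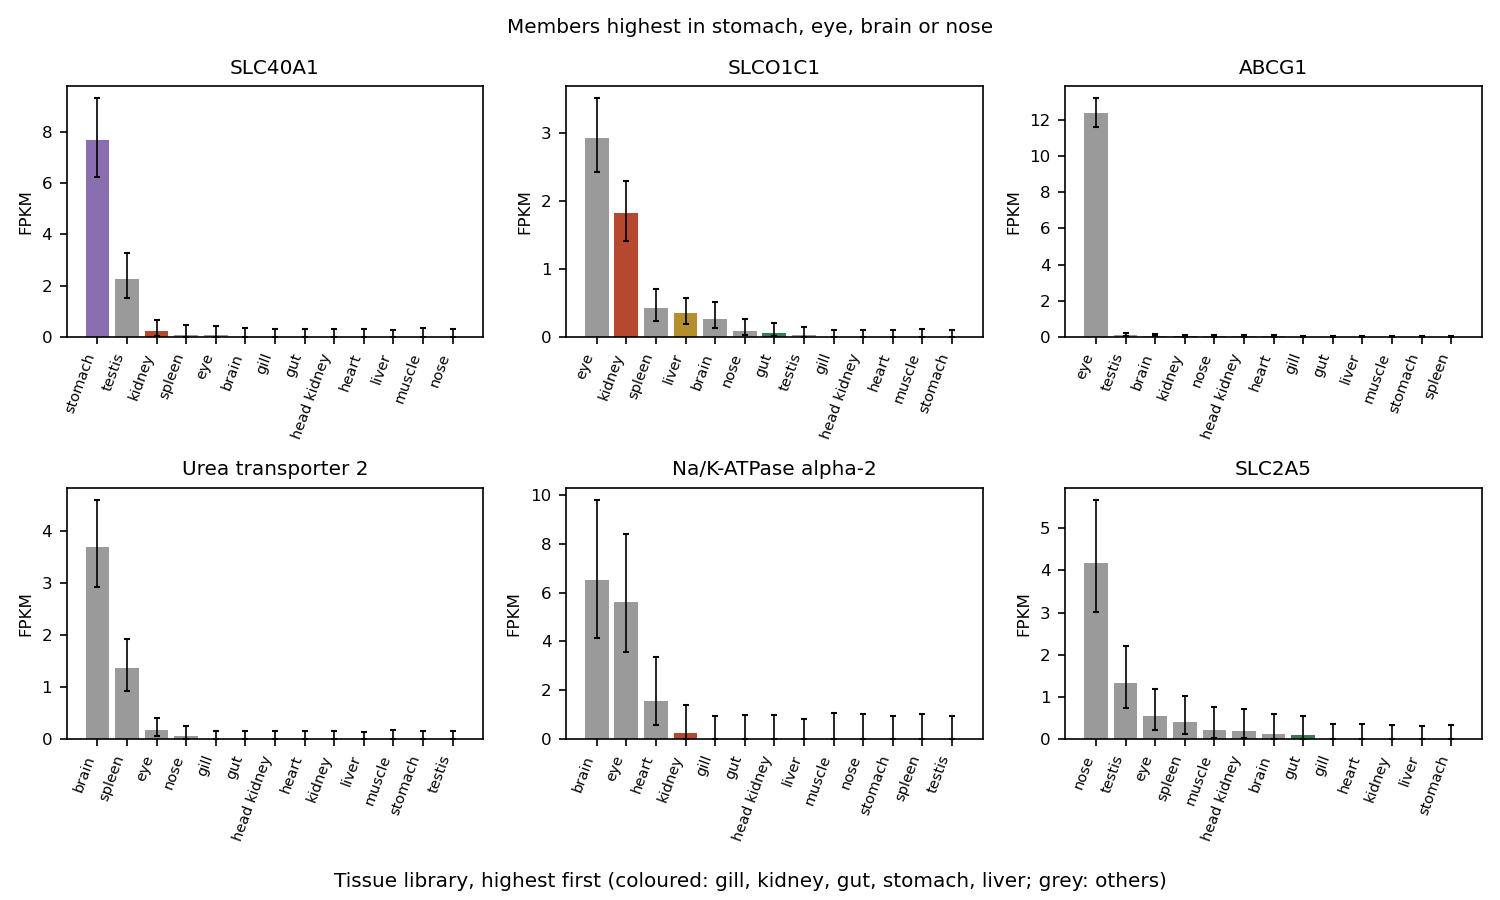
FPKM of 6 members highest in stomach, eye, brain or nose in the 13 libraries, highest first in each panel, with exact 95% intervals. ABCG1, a MAKER2 model paired by the added rule, is highest in eye at 12.4 FPKM. The intervals of brain and eye overlap for the alpha-2 subunit of Na+/K+-ATPase.

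Solute carrier family 23 member 2 (SLC23A2), a sodium-coupled carrier of vitamin C, was read in all 13 libraries. It had 6.32 FPKM (5.83 to 6.83) in spleen, 3.63 (3.26 to 4.04) in brain, 2.75 in testis and 2.22 in head kidney. Gill had 1.94 and kidney 1.73, which did not differ beyond counting error (ratio 1.12, 0.917 to 1.38). Liver had 0.419, gut 0.408, stomach 0.148 and muscle 0.064, the lowest. Spleen exceeded brain 1.74 times (1.52 to 1.99), or 1.34 times with size factors. Among the members paired through it, the chi-square statistic was largest for SLC13A2, the phospholipid-transporting ATPase VD, SLC23A2 and SLC35E1 (1.56, 1.06, 0.955 and 0.939). This statistic also grows with the number of fragments, so it does not rank how alike a transcript and its model are.

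Probable phospholipid-transporting ATPase VD, a lipid flippase paired by the added rule, had the lowest SD score of the members with 50 fragments or more, 1.58. It had 5.50 FPKM (5.10 to 5.92) in head kidney, 4.66 (4.30 to 5.05) in gill, 4.25 in spleen, 4.16 in brain, 3.91 in kidney and 3.17 in testis. Gut had 0.972, muscle 0.304, liver 0.261 and stomach 0.228. Head kidney exceeded gill 1.18 times (1.06 to 1.32), and gill, spleen, brain and kidney followed each other within counting error. Muscle, liver and stomach, its 3 lowest libraries, are those in which the 100 most abundant transcripts took the largest shares of fragments. With size factors stomach stood at 0.455, muscle at 0.889, liver at 1.00 and gut at 1.02, beside 3.65 in head kidney. How far those shares set its low values there was not tested.

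**Figure D5:**
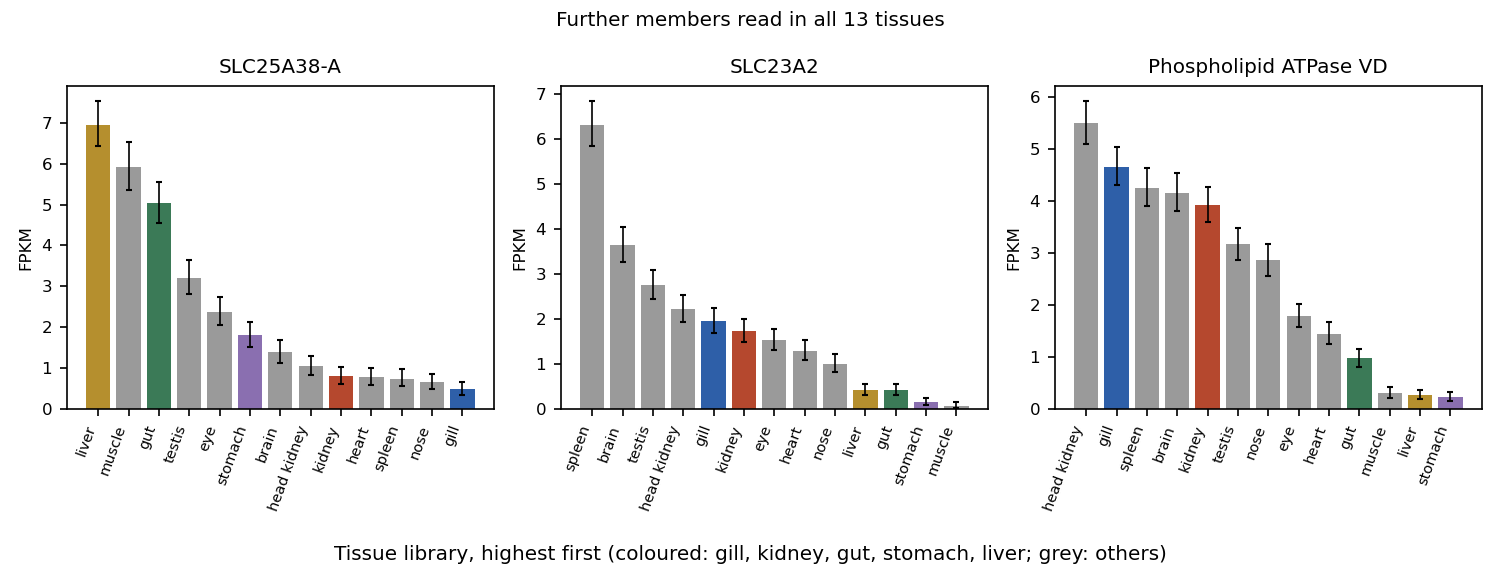
FPKM of 3 members read in all 13 libraries, highest first in each panel, with exact 95% intervals. SLC25A38-A is highest in liver (6.96 FPKM) and lowest in gill (0.481), SLC23A2 is highest in spleen (6.32), and the phospholipid-transporting ATPase is highest in head kidney (5.50).

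The remaining 9 members with a transcript had 5 to 22 fragments in all 13 libraries together and lengths of 261 to 476 bases. Beside the short transcripts of SLC2A9 and Urea transporter 2, these are 2 of Sodium/bile acid cotransporter 4, 2 of Solute carrier family 35 member F4, 1 of Solute carrier family 2, facilitated glucose transporter member 11, and 1 of Sodium/calcium exchanger 3. Their highest values were 0.498 to 2.09 FPKM. The 2 transcripts of member F4 had 11 fragments in eye and 3 in brain, and 8 in brain and 1 in eye. Sodium/calcium exchanger 3, which removes calcium from excitable cells, had 9 fragments in brain and 1 in muscle. Brain exceeded the next tissue beyond counting error for the second transcript of member F4 (9.34 times, 1.25 to 414) and for the exchanger (9.003 times, 1.25 to 395), and for the other 7 the highest tissue and the next did not differ so. In the 5 compared tissues none of the 9 had more than 4 fragments in a library.

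The 21 members without a transcript include further subunits and relatives of those above. They are the beta-3 and beta-233 subunits of Na+/K+-ATPase, Carbonic anhydrase, Carbonic anhydrase-related protein, Sodium/hydrogen exchanger 2, Sodium/glucose cotransporter 2, Copper-transporting ATPase 1, Plasma membrane calcium-transporting ATPase 2, and ATP-binding cassette sub-family B member 6. The others are further models of SLC13A3, SLC23A2, SLC40A1 and glucose transporter member 11, and models of Solute carrier family 15 member 4, family 22 members 4 and 5, family 25 members 39, 40 and 43 (2 models), and family 26 member 10. No row at hand named an ammonium transporter, an aquaporin or a sulfate transporter. The tables were at hand only in part, and this says nothing of whether pike express them.

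Transporters with other kinds of names were counted in the same way from a list of 40 rows, of which 15 had a transcript. Of these 15, 8 were called past 3 SD, beside 37.7% of all transcripts. In brain 6 were highest, in testis 3 and in kidney none, beside 27.2%, 15.9% and 3.93% of all transcripts. Called among the 5 compared tissues were 2, Choline transporter-like protein 2 and the Sodium-dependent dopamine transporter, both in gill, where 7.32% of all transcripts were called. With so few transcripts, these counts do not set the list apart from all transcripts. Excitatory amino acid transporter 3, which takes up glutamate and aspartate, had 22.2 FPKM in gut (20.9 to 23.6) and 18.6 in kidney (17.4 to 19.8), a ratio of 1.20 (1.10 to 1.31), and no fragment in gill, stomach or liver. V-type proton ATPase 116 kDa subunit a isoform 1 belongs to the pump that acidifies vesicles and, in some epithelia, the cell surface. It had 28.9 FPKM in kidney, 21.5 in gill, 13.1 in gut, 5.34 in liver and 4.39 in stomach. Its highest library was eye, with 31.8 FPKM, and testis, with 29.8, did not differ from kidney beyond counting error. Choline transporter-like protein 2 had 13.5 in gill, 5.05 in stomach, 4.42 in kidney, 0.898 in gut and 0.549 in liver. Riboflavin transporter 2 had 8.83 FPKM in gill and 8.20 in kidney, which did not differ beyond counting error (ratio 1.08, 0.922 to 1.26). Of 6 claudin rows 2 had a transcript without the added rule, and neither was called past 3 SD or in the 5 tissues. Claudin-15, paired by the added rule, had 422 FPKM in gut (413 to 431) and 0.906 in liver, the next tissue, a ratio of 465 (304 to 752). It needed at least 200 fragments to be paired, and 99.5% of its fragments were in gut.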

How the data were processed

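RNA of 13 tissues of 1 fish was sequenced as paired-end Illumina reads. The authors trimmed the reads with Trimmomatic, assembled them with Trinity, reduced the assembly to a reference of 1 transcript per locus and mapped each library to it. They mapped and counted with a program not given in the sources used here. They deposited, for each of 38696 transcripts and each library, a raw fragment count and an FPKM. Both were used as deposited.

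Members and lists were chosen with earlier results of these data known. Rows of the Trinity annotation table (1999 at hand) were matched to transcripts by their 13 counts and FPKM values. MAKER2 models (1999 rows at hand) were mapped separately by the authors, and their fragment numbers were used only to find the transcript. A model with at least 200 fragments was paired with the 1 transcript whose 13 counts lay within the larger of 2 fragments and 1%, with lengths within 20%. Otherwise it was paired with the 1 transcript of 0.8 to 4 times its fragments, at least 0.8 times its length and fragments per base within 2 times, whose homogeneity chi-square per degree of freedom was under 1 while that of every other candidate was over 3. This gave 123 and 191 pairs, 6 of them members. The second step chose the same transcript for 109 of the 109 near-equal pairs it could pair. Near-equal pairs have almost the same 13 counts, so this agreement was given by their choice and does not check the 191 pairs by proportion. With the right transcript withheld, the second step paired none of the 123 near-equal models. A rule added after the data were examined took a statistic under 0.1 with all others at least 20 times as large, or one under 2 with all others over 3 and over 3 times as large, at up to 6 times the fragments, and gave 89 pairs, 4 of them members.

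Named were all members with at least 50 fragments, and the rest by range. With scipy 1.17.1 in Python 3.11.15 (pandas 2.3.3, numpy 2.4.6, figures with matplotlib 3.10.9), intervals were calculated as exact Poisson intervals of counts and exact conditional binomial intervals of FPKM ratios. Where a library had no fragment, 3 fragments served as its floor. There were no replicates and no test between tissues was run. The code that makes the calls was checked on simulated data with counting noise only. Differences were planted in transcripts with many fragments, so the check does not cover the members with few. Alternatives were other SD formulas and scales, 0.1 or 1 FPKM added, other minimums, TPM, size factors from 14814 transcripts with fragments in all libraries, head kidney left out and subsets of members.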

Additional observations from a re-analysis of the deposited data

How the results depend on the processing

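Of the 23 members, 12 were called past 3 SD, and 7 on log2(FPKM + 1), beside 37.7% and 18.5% of all transcripts. Under the other alternatives that keep the 23 members the number was 9 to 12. With other sets of members it was 8 of the 17 Trinity transcripts, 9 with the near-equal pair added to these, and 15 of 27 with the added rule. Shares of all transcripts were not calculated for these alternatives, nor for those of the counts by tissue that follow. The number highest in brain, 7, was 3 with at least 10 fragments and 4 with size factors; for eye, 3 members, it was 5 with size factors, for gut, 1 member, 0 with at least 10 fragments and 3 with size factors, and for nose, 2 members, 1 in both cases. Without the MAKER2 models, 1 member was highest in gill and 1 in kidney, and none in spleen; with the near-equal pair alone added, 1 was highest in gill, 2 in kidney and 0 in spleen. With the 4 members of the added rule, 3 were highest in gut and 1 in head kidney.

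In the 5 compared tissues, 2 members were called in gill and 1 in kidney without the MAKER2 models, and 2 in each with the near-equal pair alone. In gut 2 were called without a minimum of fragments and 2 with the added rule, against none, and in liver 1 with size factors, against none. All 23 members kept their highest tissue in TPM and 19 did with size factors. Of the ratios of 18 members to the next tissue, 8 left their counting interval with size factors, 2 in TPM, 6 with 1 FPKM added and none with 0.1 added, and no ratio whose interval lay above 1 was turned round. No paired analysis was possible because each tissue has 1 library. The cause of these changes was not tested. Depth limits the short transcripts most: 9 of the 23 had under 50 fragments in all, and most of the differences between their tissues lie within counting error.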
